A study of Homo sapiens with 6 samples.

Results

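The genes described here are 10 members of the actin superfamily, 4 that encode actins or actin-like proteins named for their sequence (ACTB, ACTG1, ACTA2 and ACTL8) and 6 that encode actin-related proteins (ACTL6A, ACTR1A, ACTR2, ACTR3, ACTR5 and ACTR6), out of 58825 genes measured by mRNA sequencing in MHCC97H, an established human hepatocellular carcinoma line. They were taken by gene name. ACTL8 was chosen by its adjusted p and log2 fold change in the comparison made here, so its values for that difference are a description and carry no test. The other 9 were included as its relatives.

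The study asked what PTBP1, a splicing repressor that binds pyrimidine-rich RNA, controls in liver cancer cells, and 3 shControl libraries, whose genotype is given as WT, were compared with 3 shPTBP1 libraries, whose genotype is given as PTBP1 Knockdown. Both groups carried a short hairpin, either a control or one directed against PTBP1, and nothing else is stated to differ. The labels do not say which PTBP1 hairpin a library received, nor that the 3 libraries of a group came from separate cultures. Each p-value therefore sets a difference only against the spread between these libraries, which may be technical. No source used here gives the clones or passages behind the libraries. Values of single libraries are given below in the order of the library numbers 1, 2 and 3.

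Actin is the protein of the thin filaments that give a cell its shape and its motility. Cytoplasmic β-actin (ACTB) and γ-actin (ACTG1) build most filaments of non-muscle cells, and α-smooth muscle actin (ACTA2) is typical of contractile cells. Actin-related proteins share the actin fold but serve as fixed parts of machines. Arp2 (ACTR2) and Arp3 (ACTR3) start branched filaments, Arp1 (ACTR1A) forms the short filament at the core of dynactin, the partner of the dynein motor, and ACTL6A, ACTR5 and ACTR6 sit in nuclear chromatin-remodelling complexes. ACTL8 is a cancer-testis gene, one normally read mainly in testis and switched on in some tumours.

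The libraries held 68704509 to 85317970 counts. PTBP1 itself measured 21.2, 16.4 and 27.4 FPKM (fragments per kilobase of transcript and per 1000000 fragments) in the controls and 17.3, 16.9 and 18.0 FPKM in the shPTBP1 libraries. These ranges overlapped (log2 fold change -0.29, SE 0.18, edgeR adjusted p = 0.953), so the mRNA level in these libraries does not separate the groups. The paper states that it checked its PTBP1 hairpins by western blot and RT-qPCR in lines that included MHCC97H. Every direction below is that of the libraries labelled shPTBP1. Of 14 hepatocyte and liver cancer markers, ALB, APOB, TTR, FGB and AFP had no count in any library and SERPINA1 reached at most 1.32 counts per 1000000 counts (CPM), whereas the epithelial keratins KRT8 and KRT18 lay between 301 and 435.2 CPM. Of the 3 tested, KRT8 was higher at an unadjusted p under 0.05, where 3.58% of all genes were (log2 fold change 0.32, edgeR adjusted p = 0.726). The labelled liver origin is therefore not visible in these secretory genes. The summed CPM of 14 red-cell and leukocyte markers was 1306, 817 and 1.58 in the controls and 868, 775 and 1.21 in the shPTBP1 libraries, so that the libraries numbered 3 stood apart from the other 4 in both groups. Of these markers 11 were tested and 10 lay below 0 (median log2 fold change -0.38), with none at an unadjusted p under 0.05 in edgeR.

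ACTL8 differed between the groups in every library. It lies at chr1:17755333-17827063 on the plus strand (hg38) and encodes 366 codons in the annotation used (GENCODE 29). Its level was 3.38, 3.19 and 3.55 FPKM in the controls, and 0.70, 0.64 and 0.68 FPKM in the shPTBP1 libraries. The deposited counts behind these values were 511, 601 and 537 in the controls and 123, 110 and 110 in the shPTBP1 libraries. The groups did not overlap, and within each group the 3 libraries lay close together.

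On the scale of CPM normalised by the trimmed mean of M-values (TMM), ACTL8 averaged 7.34 ± 0.35 (SD, n = 3) in shControl and 1.498 ± 0.072 (SD, n = 3) in shPTBP1. The log2 fold change fitted to the counts was -2.29 (SE 0.19). This value ranked 4 by p among the 19393 genes with enough counts for the fit, and 1 among those that were lower in shPTBP1. The p-value itself (edgeR adjusted p = 0.0249) is what brought the gene into view and is given for description. It passed 0.05 without shControl 3 (0.0178) and missed it without shControl 1 (0.0810), shControl 2 (0.135), shPTBP1 1 (0.161), shPTBP1 2 (0.159) or shPTBP1 3 (0.116), while the log2 fold change stayed between -2.33 and -2.25. It also missed 0.05 with number 3 as a covariate (adjusted p = 0.0740 in edgeR) and with the replicate block (adjusted p = 0.416 in edgeR).

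The difference was of similar size at each library number. The log2 ratio of CPM, shPTBP1 over shControl, was -2.27 at number 1, -2.29 at number 2 and -2.31 at number 3. The red-cell and leukocyte markers were near 0 in the libraries numbered 3 and not in the others, and their part in the difference was not tested. The within-group SD of log2 CPM was 0.059 for ACTL8, against a median of 0.233 over all genes tested. ACTL8 was chosen by its adjusted p in these libraries, which a small spread lowers. Its SD and its like ratios are therefore a description and lend the difference no support. In bulk RNA, fewer ACTL8-expressing cells and less ACTL8 mRNA per cell cannot be told apart.

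**Figure D1:**
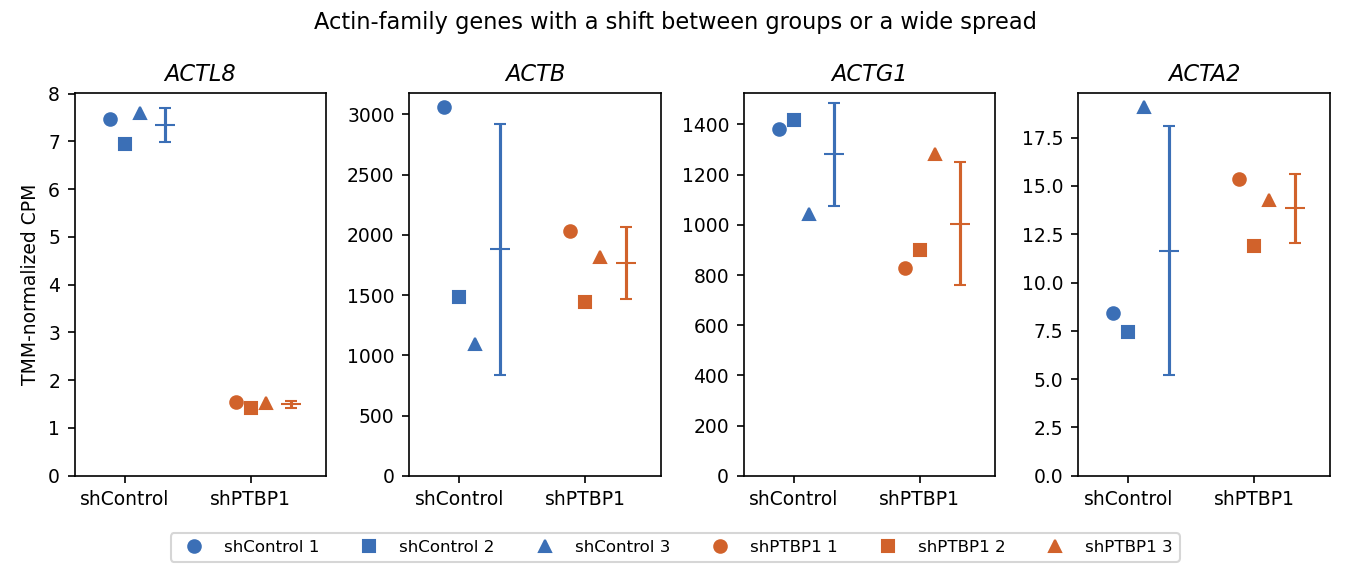
TMM-normalised CPM (linear axes starting at 0) of ACTL8, ACTB, ACTG1 and ACTA2 in each library, with marker shape for the library number and, beside the points, the group mean ± SD (n = 3). The ACTL8 groups are apart, at 6.95 to 7.60 CPM in shControl and 1.42 to 1.55 CPM in shPTBP1, while the groups of the other 3 genes overlap.

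The sequence around the ACTL8 start is shown because ACTL8 is the gene whose mRNA level separated the groups, and that of ACTG1 because it is an abundant actin whose window held a CArG box. The stretches run from 250 bases before to 50 bases after the RefSeq start (GRCh38.p14). Capitals mark the CACGTG hexamer, the palindromic E-box, which reads the same on both strands, and the CArG box, the site of serum response factor. ACTL8 is at chr1:17755083-17755382 on the plus strand and ACTG1 at chr17:81512750-81513049 on the minus strand.
ACTL8: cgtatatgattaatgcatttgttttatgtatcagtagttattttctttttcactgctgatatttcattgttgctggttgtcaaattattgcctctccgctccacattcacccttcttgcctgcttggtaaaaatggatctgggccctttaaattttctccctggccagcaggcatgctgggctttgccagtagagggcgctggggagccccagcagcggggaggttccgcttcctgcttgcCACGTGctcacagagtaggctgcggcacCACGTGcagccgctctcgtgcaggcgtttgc
ACTG1: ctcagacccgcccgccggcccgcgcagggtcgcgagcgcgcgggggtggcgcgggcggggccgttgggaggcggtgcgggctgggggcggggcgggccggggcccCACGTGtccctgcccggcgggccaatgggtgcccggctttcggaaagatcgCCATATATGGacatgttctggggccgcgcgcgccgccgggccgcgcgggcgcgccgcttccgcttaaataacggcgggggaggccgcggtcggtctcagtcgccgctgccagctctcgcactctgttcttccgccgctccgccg

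The ACTL8 stretch held 2 CACGTG hexamers, with first bases at -9 and 20 relative to the start, and no CArG box, no TATAAA and no GGGCGG on either strand. Of 35116 promoter windows of the same length, 7.26% held a CACGTG and 0.664% held 2 or more. Its GC content was 51.3%, below the median of 58.7% over all windows. The ACTG1 stretch held a CArG box at -94 (in 1.29% of windows), a CACGTG at -145 and 4 GGGCGG hexamers (45% of windows held at least 1 and 26.7% held 2 or more). Of the 8 members with a promoter entry, 11 windows in all, ACTG1 was alone in holding an exact match to the CArG box. Near matches were not counted, and an ACTA2 window holds such stretches, so a site of serum response factor there is not excluded. GGGCGG was present in ACTR2, ACTR3, ACTA2, ACTR1A, ACTR6, ACTG1 and ACTR5. These letters are a description of the windows and do not show that any factor binds there. ACTB and ACTL6A had no entry.

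Few genes near ACTL8 on chromosome 1 were expressed in these cells. Of 13 annotated genes within 500 kb, those with clear counts were RCC2, a chromosome condensation regulator 315.6 kb away, and ARHGEF10L, 57.4 kb away. ARHGEF10L measured 10.8, 10.4 and 9.47 CPM in the controls and 11.2, 11.4 and 10.3 CPM in the shPTBP1 libraries (log2 fold change 0.10, SE 0.15, edgeR adjusted p = 0.982), with overlapping groups. RCC2 had a log2 fold change of -0.14 (edgeR adjusted p = 0.956). PADI3 passed the count filter at no more than 0.31 CPM (log2 fold change 0.95, SE 1.55), and the nearest gene, the non-coding AL136529.1 at 5.3 kb, had no count. The remaining genes of the window, IGSF21 among them, were at or near 0.

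The genes whose profile over the 6 libraries was most like that of ACTL8 (Pearson r of log2(CPM + 0.5), 14232 genes with a mean of at least 1 CPM compared) were PPT2 (r = 0.997), MAGEA1 (r = 0.994), HNMT (r = 0.992), ARRB1 (r = 0.991) and TTLL11 (r = 0.991). With 3 libraries on each side, such a correlation mostly restates a separation of the groups. PPT2, a lysosomal thioesterase, was at 82.1, 83.0 and 82.5 CPM in the controls and 56.0, 55.9 and 57.7 CPM in the shPTBP1 libraries (log2 fold change -0.55, edgeR adjusted p = 0.210). MAGEA1, like ACTL8 a cancer-testis gene, was at 3.26, 3.50 and 3.55 CPM in the controls and 1.87, 1.85 and 1.94 CPM in the shPTBP1 libraries (log2 fold change -0.86, edgeR adjusted p = 0.489). The groups did not overlap for either gene, and neither passed the adjusted threshold in edgeR, while DESeq2 called PPT2 (adjusted p = 0.0215). The log2 fold change was -0.43 for HNMT, which inactivates histamine, -0.39 for the β-arrestin gene ARRB1 and -0.98 for TTLL11, a tubulin polyglutamylase that DESeq2 called (adjusted p = 0.0254) and edgeR did not (adjusted p = 0.364).

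The expression levels of the 10 genes were compared per length in FPKM, with the cytoplasmic actins at the top. By the mean of the 6 libraries the order was ACTB (448 FPKM), ACTG1 (321 FPKM), ACTR2 (65.7 FPKM), ACTR1A (25.1 FPKM), ACTL6A (22.1 FPKM), ACTR3 (17.2 FPKM), ACTR6 (6.73 FPKM), ACTA2 (3.60 FPKM), ACTR5 (2.67 FPKM) and ACTL8 (2.02 FPKM). Of the 9 neighbouring pairs in this order, ACTB with ACTG1, ACTR1A with ACTL6A, ACTA2 with ACTR5 and ACTR5 with ACTL8 had overlapping ranges over the 6 libraries, and the other 5 pairs did not overlap. In the controls ACTL8 had a mean of 3.37 FPKM, beside 3.33 FPKM for ACTA2 and 2.94 FPKM for ACTR5, with overlapping ranges, and in the shPTBP1 libraries ACTL8 was below every other member.

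**Figure D2:**
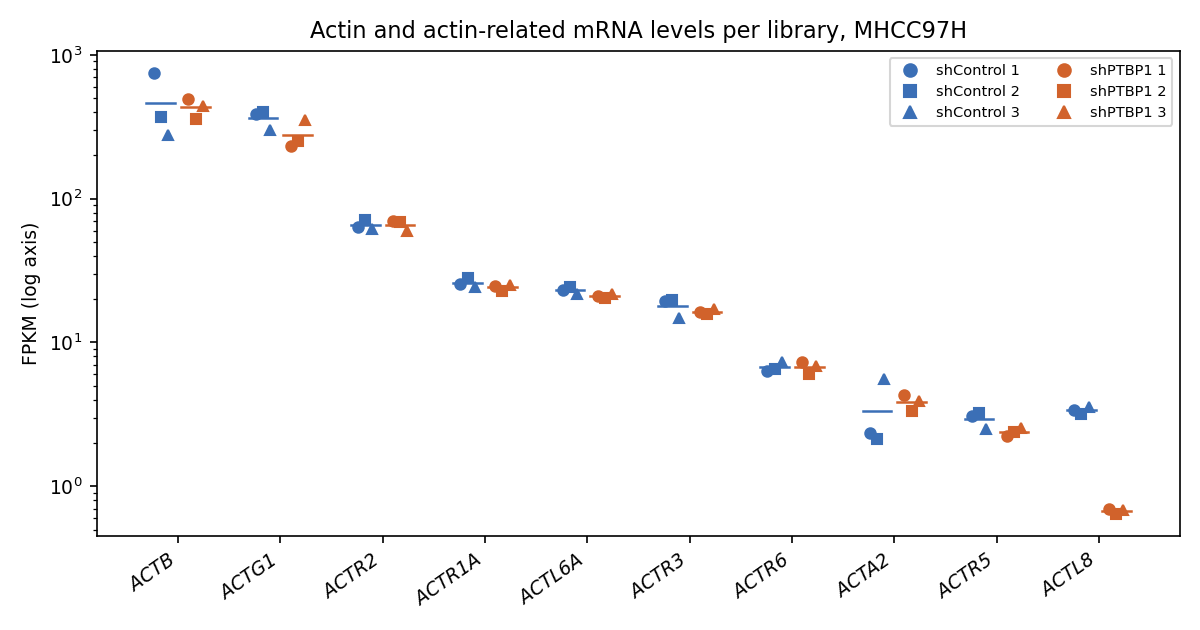
FPKM (log axis) of the 10 genes in each of the 6 libraries, ordered by mean, with a line at each group mean and marker shape for the library number. Apart from ACTL8, with 3.19 to 3.55 FPKM in shControl and 0.64 to 0.70 FPKM in shPTBP1, the shControl and shPTBP1 points of each gene overlap.

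Across the whole family, ACTL8 was the 1 member of 10 past the adjusted threshold in edgeR, where 0.0309% of all 19393 genes tested were called (6 genes) and 0.0103% were called lower (2 genes), and this contrast is the one that brought it in. It was also the 1 member of 10 whose groups did not overlap (11.9% of all genes tested, with 5.46% lower in every shPTBP1 library). None of the other 9 members was called, the smallest p in edgeR being that of ACTG1 (unadjusted p = 0.117, adjusted p = 0.953). Of those 9, none had an unadjusted p under 0.05 (5.69% of all genes). Their log2 fold changes ran from -0.35 to 0.25, with a median of -0.09 beside -0.01 over all genes tested. Of all 10, 7 lay below 0 and 3 above, where 52% of all genes lay below 0.

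**Figure D3:**
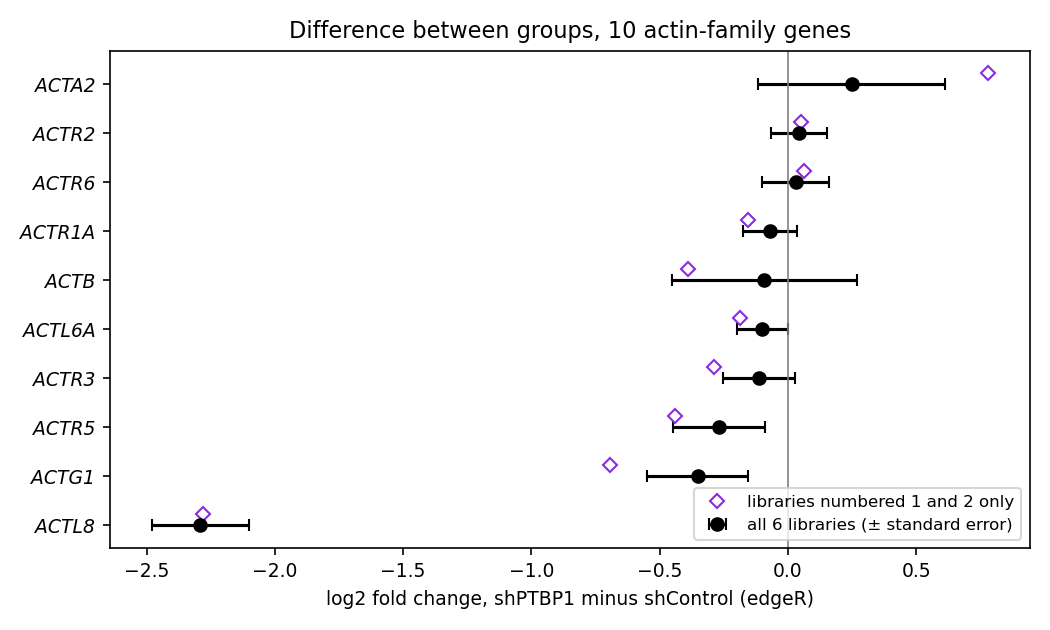
Difference on the log2 scale (shPTBP1 relative to shControl) for each actin gene from edgeR with all 6 libraries (filled circles, ± standard error) and with the libraries numbered 1 and 2 alone (open diamonds). ACTL8 is at -2.29 and -2.28, and ACTG1 moves from -0.35 to -0.70 and ACTA2 from 0.25 to 0.78 when the libraries numbered 3 are left out.

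The cytoplasmic actins were the most abundant members and did not separate the groups. ACTB (chr7:5527148-5563784, minus strand) measured 749.63, 369.84 and 276.17 FPKM in the controls and 496.78, 355.46 and 439.03 FPKM in the shPTBP1 libraries. The highest and the lowest value were both controls, so that the shPTBP1 range lay inside the control range. The log2 fold change was -0.09 (SE 0.36, edgeR adjusted p = 0.995), and without shControl 1 it was 0.45. The within-group SD of log2 CPM was 0.57, the largest of the 10 members.

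ACTG1 (chr17:81509971-81523847, minus strand) measured 385.36, 402.04 and 300.95 FPKM in the controls and 230.91, 252.85 and 352.99 FPKM in the shPTBP1 libraries. shPTBP1 1 and 2 were below all controls and shPTBP1 3 was above shControl 3. The log2 fold change was -0.35 (SE 0.20, edgeR adjusted p = 0.953), and -0.70 (edgeR adjusted p = 0.0731) with the libraries numbered 1 and 2 alone.

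The balance of the β and γ genes varied within both groups. The ACTB to ACTG1 ratio of FPKM was 1.94, 0.920 and 0.918 in the controls and 2.15, 1.41 and 1.24 in the shPTBP1 libraries. The ranges overlapped because shControl 1 lay above shPTBP1 2 and 3. Both genes together made up 0.406%, 0.291% and 0.198% of the FPKM sum in the controls and 0.247%, 0.216% and 0.269% in the shPTBP1 libraries.

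Because the 2 genes are close copies, the start of each coding sequence is shown, with capitals at the 10 of 60 bases that differ (GENCODE 29, counted from the start codon).
ACTB: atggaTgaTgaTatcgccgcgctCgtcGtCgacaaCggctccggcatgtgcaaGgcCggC
ACTG1: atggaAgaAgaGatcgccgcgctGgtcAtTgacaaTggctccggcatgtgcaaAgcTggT

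Over 1125 aligned coding bases ACTB and ACTG1 were 91.3% identical, with a longest shared run of 59 bases, and ACTB and ACTA2 were 82.2% identical, with a longest shared run of 32 bases. How the authors' counting treated reads that match more than 1 of these genes is not given in the sources used here, so their split is uncertain to that extent. The processed copies took few counts: 10 ACTB pseudogenes together held 0.0297% to 0.0803% of the ACTB count and 20 ACTG1 pseudogenes 0.0701% to 0.164% of the ACTG1 count, with no copy at a mean of 1 FPKM or more. ACTL8 was 52.9% identical to ACTB, with a longest shared run of 13 bases.

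ACTA2 (chr10:88935074-88991339, minus strand) was a minor actin in this line. It measured 2.35, 2.12 and 5.53 FPKM in the controls and 4.31, 3.35 and 3.93 FPKM in the shPTBP1 libraries. shControl 1 and 2 were below the other 4 libraries, a pattern found in 16.4% of all genes tested, and shControl 3 was the highest of all. The log2 fold change was 0.25 (SE 0.36, edgeR adjusted p = 0.982), and 0.78 (edgeR adjusted p = 0.168) with the libraries numbered 1 and 2 alone. The summed CPM of 14 smooth muscle and fibroblast markers was 137, 127 and 151 in the controls and 155, 157 and 118 in the shPTBP1 libraries, most of it COL1A1 (75.9 to 111 CPM, log2 fold change 0.01). CNN1 and COL1A2 had no count, MYH11 reached at most 0.555 CPM and DES at most 0.694 CPM. Of the 10 markers tested, 9 lay above 0 with a median log2 fold change of 0.19, and none passed the adjusted threshold in edgeR. FAP, a fibroblast protease, was higher in every shPTBP1 library at 0.479, 0.734 and 0.555 CPM, against 0, 0.0925 and 0.0566 CPM in the controls (edgeR unadjusted p = 0.00674, adjusted p = 0.600, DESeq2 adjusted p = 0.0256), and DCN, a matrix proteoglycan, reached at most 0.875 CPM (log2 fold change 1.05). The part of these markers in the ACTA2 values was not tested. ACTA2 overlaps STAMBPL1, FAS and ACTA2-AS1 on the opposite strand. The libraries were made with strand-marking chemistry, but strand-aware counting is not stated, so reads of the overlapping parts may be mixed. STAMBPL1 was lower in every shPTBP1 library, as were 5.46% of all genes tested (log2 fold change -0.44, edgeR unadjusted p = 0.0122, adjusted p = 0.672). FAS measured 20.4, 13.5 and 10.1 CPM in the controls and 8.70, 18.0 and 10.3 CPM in the shPTBP1 libraries.

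The Arp2/3 subunits overlapped between the groups. ACTR2 (chr2:65227753-65271253, plus strand) measured 63.20, 71.28 and 61.50 FPKM in the controls and 69.73, 68.77 and 59.65 FPKM in the shPTBP1 libraries, and the groups were interleaved (log2 fold change 0.04, SE 0.11, edgeR adjusted p = 0.992). ACTR3 (chr2:113889960-113962596, plus strand) measured 19.46, 19.77 and 14.90 FPKM in the controls and 16.20, 15.77 and 17.21 FPKM in the shPTBP1 libraries. shControl 3 was the lowest library and shControl 1 and 2 the highest (log2 fold change -0.11, SE 0.14, edgeR adjusted p = 0.980). The ACTR3 to ACTR2 ratio of FPKM was 0.308, 0.277 and 0.242 in the controls and 0.232, 0.229 and 0.289 in the shPTBP1 libraries, with overlapping ranges. Arp2 and Arp3 are present in equal numbers in the complex, and these values are mRNA levels, not protein.

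ACTR1A (chr10:102461881-102502712, minus strand), the dynactin filament subunit, measured 25.64, 27.88 and 24.38 FPKM in the controls and 24.87, 22.90 and 25.04 FPKM in the shPTBP1 libraries. The ranges overlapped (log2 fold change -0.07, SE 0.10, edgeR adjusted p = 0.982).

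The nuclear members overlapped between the groups as well. ACTL6A (chr3:179562886-179588407, plus strand), a subunit of BAF, INO80 and NuA4, measured 23.18, 24.31 and 21.65 FPKM in the controls and 21.02, 20.51 and 21.77 FPKM in the shPTBP1 libraries. In FPKM only shPTBP1 3 was above the lowest control, whereas in CPM shPTBP1 1 was as well (92.5 against 92.1 in shControl 3). The log2 fold change of ACTL6A was -0.10 (SE 0.10, edgeR adjusted p = 0.975). Its level varied little, with the highest CPM 1.17 times the lowest. ACTL6A overlaps MRPL47 on the opposite strand (mean of 46.0 FPKM, log2 fold change -0.27, edgeR adjusted p = 0.953). As for ACTA2, reads of the overlapping parts may be mixed. ACTR1A with MFSD13A and ACTR6 with DEPDC4 overlap in the same way.

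ACTR5 (chr20:38748460-38772520, plus strand), an INO80 subunit, measured 3.09, 3.24 and 2.50 FPKM in the controls and 2.25, 2.38 and 2.56 FPKM in the shPTBP1 libraries. shControl 3 fell among the shPTBP1 libraries (log2 fold change -0.27, SE 0.18, edgeR adjusted p = 0.953). ACTR6 (chr12:100199122-100241865, plus strand), a subunit of SRCAP, which deposits the histone variant H2A.Z, measured 6.30, 6.53 and 7.36 FPKM in the controls and 7.33, 6.02 and 6.86 FPKM in the shPTBP1 libraries. The highest library was a control and the lowest a shPTBP1 library (log2 fold change 0.03, SE 0.13, edgeR adjusted p = 0.995).

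The direction of most members changed at number 3. In 7 of the 10 members (ACTL6A, ACTB, ACTG1, ACTA2, ACTR1A, ACTR3 and ACTR5) the log2 ratio of shPTBP1 over shControl had 1 sign at numbers 1 and 2 and the opposite sign at number 3. The share over all genes tested was 39.3%. ACTG1 had ratios of -0.74, -0.66 and 0.30, ACTA2 of 0.87, 0.67 and -0.42, and ACTR3 of -0.26, -0.31 and 0.28 at numbers 1, 2 and 3. For ACTB they were -0.59, -0.04 and 0.74, for ACTR5 -0.45, -0.43 and 0.10, for ACTL6A -0.14, -0.23 and 0.08 and for ACTR1A -0.04, -0.27 and 0.11. ACTL8, which was chosen by this contrast, was the 1 member with the same sign at all 3 numbers (26.2% of all genes tested). Such a ratio does not say which of the libraries numbered 3 differed. shControl 3 was the lowest of all libraries for ACTB and ACTR3 and the highest for ACTA2. For ACTG1, ACTL6A, ACTR1A and ACTR5 it was the lowest control, and shPTBP1 3 was the highest of its group. Without shControl 3, 5 members had an unadjusted p under 0.05 in edgeR (3351 of 20167 genes), and 2 members without shPTBP1 3 (1022 of 20253 genes). The red-cell and leukocyte markers moved with number 3 in both groups, and their part in these values was not tested.

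With the 4 libraries numbered 1 and 2 alone, 5 of the 10 members had an unadjusted p under 0.05 in edgeR, where 17.7% of the 19733 genes tested did. They were ACTL8 (log2 fold change -2.28, SE 0.20), ACTG1 (-0.70, SE 0.085), ACTA2 (0.78, SE 0.19), ACTR3 (-0.29, SE 0.076) and ACTR5 (-0.44, SE 0.15). After adjustment over all genes 1 member was past the threshold, ACTL8 (edgeR adjusted p = 0.0483), where 0.319% of genes were called, and ACTG1 (0.0731), ACTA2 (0.168), ACTR3 (0.177) and ACTR5 (0.251) were not. These 4 libraries are among those in which ACTL8 was chosen, so its values here are a description and no further test.

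Of 17 other actin family genes, 8 had enough counts to test and none passed the adjusted threshold in edgeR, with 1 at an unadjusted p under 0.05 (3.58% of all genes were higher at that level) and a median log2 fold change of 0.01. That gene was ACTR10, the Arp11 subunit of dynactin, with 45.8, 36.5 and 45.1 CPM in the controls and 54.7, 52.9 and 60.3 CPM in the shPTBP1 libraries. Every shPTBP1 library was above every control, as for 6.49% of all genes tested (log2 fold change 0.40, SE 0.13, edgeR adjusted p = 0.728). ACTR3B and ACTR3C, relatives of ACTR3, also had no overlap, with log2 fold changes of 0.16 and 0.33. The cardiac actin gene ACTC1 was the most abundant of the 8 at a mean of 26.0 FPKM, above ACTA2. It measured 185.2, 144.4 and 105.3 CPM in the controls and 181.3, 125.4 and 114.3 CPM in the shPTBP1 libraries (log2 fold change -0.05, SE 0.25, edgeR adjusted p = 0.995). In coding bases ACTC1 was 83.3% identical to ACTG1, with a longest shared run of 49 bases, and 85.5% identical to ACTA2, with a run of 35. The uncertain split of shared reads therefore extends to the levels of ACTC1 and ACTA2. The remaining 4 tested were ACTR1B (0.05), ACTR8 (-0.04), ACTG2 (-0.23) and ACTRT3 (-0.29), all values being log2 fold changes. ACTL6B, ACTL9, ACTRT1 and ACTRT2 had no count.

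The partners of the members in their machines were described by lists, and in none of them did a gene pass the adjusted threshold in edgeR. All 7 Arp2/3 partner subunits were tested, none at an unadjusted p under 0.05, with 6 of 7 below 0 and a median log2 fold change of -0.15 beside -0.01 over all genes. ARPC4 (-0.31), ARPC5 (-0.21) and ARPC5L (-0.19) had the smallest p. Of 21 Arp2/3 activators tested, none was at an unadjusted p under 0.05 and the median was 0.04. Their smallest p belonged to WAS (-1.28, at no more than 0.571 CPM), CTTN (cortactin, -0.35) and BRK1 (-0.16). Of 8 Arp2/3 inhibitors and debranching factors, 1 was higher and 1 lower at an unadjusted p under 0.05, where 3.58% of all genes were higher and 2.11% lower.

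The higher one of these was GMFB, a factor that removes branches, with 100.7, 96.4 and 94.2 CPM in the controls and 120.9, 128.3 and 115.8 CPM in the shPTBP1 libraries (log2 fold change 0.33, edgeR adjusted p = 0.663). The lower one was CORO1C, a coronin, with 64.0, 156.8 and 144.8 CPM in the controls and 54.2, 61.2 and 68.2 CPM in the shPTBP1 libraries (log2 fold change -0.99, SE 0.32, edgeR adjusted p = 0.725). For CORO1C, shControl 1 lay within the shPTBP1 range, and for GMFB the groups did not overlap.

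Among the 10 formins tested, which start and lengthen unbranched filaments, 1 was higher at an unadjusted p under 0.05 (3.58% of all genes), INF2 (log2 fold change 0.34, edgeR adjusted p = 0.798), and the median was 0.06. Among 24 genes of filament turnover and capping, 1 was higher (3.58% of all genes) and 1 lower (2.11%) at that level, with a median of -0.04. CAPG, which caps filament ends, was at 6.50, 6.83 and 11.8 CPM in the controls and 19.6, 15.6 and 16.9 CPM in the shPTBP1 libraries, without overlap (log2 fold change 1.05, SE 0.26, edgeR adjusted p = 0.554). It passed the threshold in DESeq2 (adjusted p = 0.0215) and in edgeR without shControl 3 (log2 fold change 1.38, adjusted p = 0.0387). CAPZB, the β subunit of capping protein, had a log2 fold change of -0.46 (edgeR adjusted p = 0.869).

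**Figure D4:**
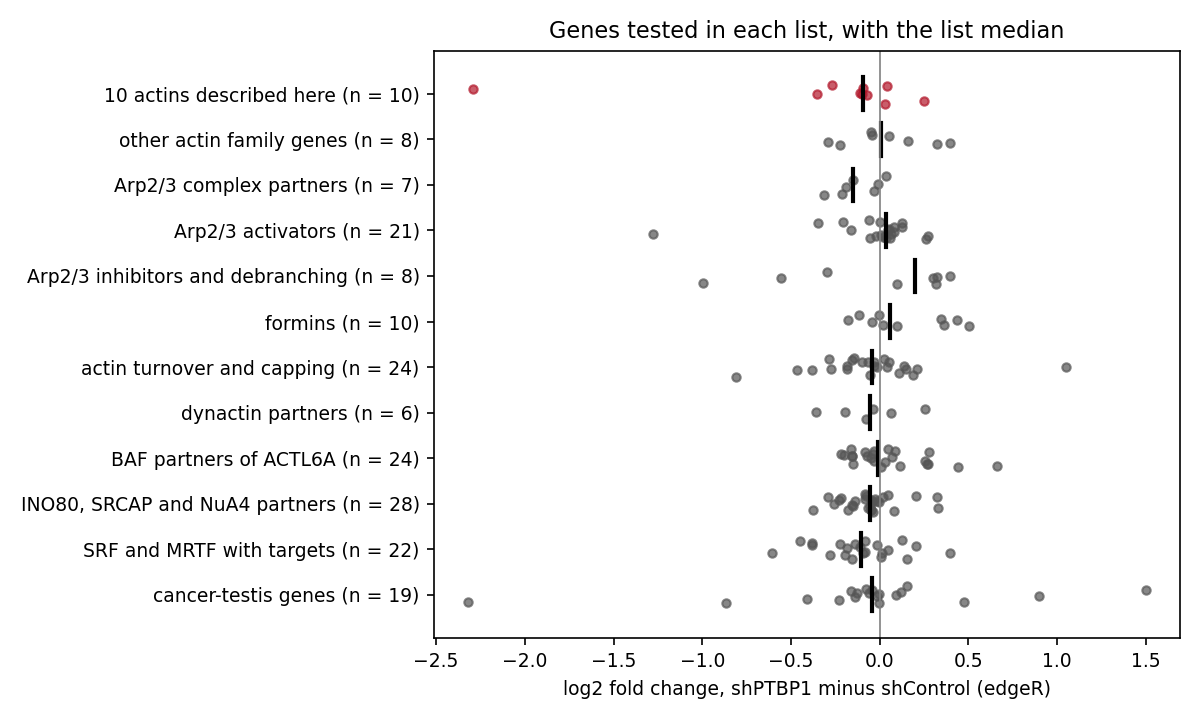
Difference on the log2 scale (shPTBP1 relative to shControl, edgeR) for every gene tested in each list of actin partners, actin regulators and cancer-testis genes, with a black bar at the list median and small vertical offsets to separate points. The cell type marker lists are not plotted. The medians plotted lie between -0.15 for the Arp2/3 partners and 0.20 for the Arp2/3 inhibitors, and ACTL8 at -2.29 is the far point of the top row.

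The 6 dynactin partners of ACTR1A in the list, DCTN1 to DCTN6, had none at an unadjusted p under 0.05 and a median of -0.06. The list does not hold every dynactin subunit. ACTR10, described above with the other actin genes, was left out of it and was higher at that level. Of 24 BAF partners of ACTL6A, 3 were higher at an unadjusted p under 0.05 (3.58% of all genes), with a median of -0.01. They were SMARCD3 (log2 fold change 0.66, edgeR adjusted p = 0.635), BCL7A (0.44, adjusted p = 0.826 in edgeR) and SMARCC2 (0.28, adjusted p = 0.817 in edgeR). Of 28 partners in INO80, SRCAP and NuA4, 1 was lower at an unadjusted p under 0.05, MBTD1 (-0.37, with 2.11% of all genes lower at that level). Of the 28, 22 lay below 0, where 52% of all genes did, with a median of -0.05.

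Serum response factor with its cofactors and targets, the circuit that reads the level of free actin, had 22 genes tested with 1 higher (ACTN1, 0.40) and 1 lower (CALD1, -0.38) at an unadjusted p under 0.05 (3.58% and 2.11% of all genes) and a median log2 fold change of -0.10. SRF itself was at -0.10 (edgeR adjusted p = 0.982).

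Of 40 cancer-testis genes, the class to which ACTL8 belongs, 19 were tested and 16 had no count in any library. Of these, 1 gene, MAGEA1 (above), was lower at an unadjusted p under 0.05 (2.11% of all genes), and the median was -0.04. The 3 members of the list with the highest mean FPKM were MAGEB2 (145 FPKM), PBK (70.7 FPKM) and MAGEA6 (59.2 FPKM), with log2 fold changes of -0.0039, -0.01 and -0.08 (edgeR adjusted p = 0.998, 0.996 and 0.979). DDX53 had -2.32 at no more than 0.453 CPM (SE 1.09), and PAGE1 had 0.90 at no more than 1.31 CPM.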

How the data were processed

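Poly(A) RNA of 6 MHCC97H libraries was sequenced. Per the labels, the authors' processing notes name cutadapt 1.9, FastQC, HISAT2 2.2.1 and StringTie with hg38, with settings not given in the sources used here. The deposited table holds FPKM and a count per gene and library. The deposited counts were treated as estimated counts, because 32.5% to 34.4% of values from 1 to 40 were multiples of 4, which leaves the number of sequenced fragments unknown.

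The counts were filtered (filterByExpr, 19393 genes kept), scaled by TMM and tested with edgeR 4.0.16 (quasi-likelihood F test, shPTBP1 against shControl, Benjamini-Hochberg adjustment over all genes tested, R 4.3.3). All libraries entered the fit, with no covariate. A standard error is the log2 fold change over the square root of F. DESeq2 1.42.0, limma 3.58.1 and other scalings, filters and sets of libraries were tried, 17 alternatives in all. The steps were tested on simulated data. Levels of the members, the other actin genes and the cancer-testis genes were ordered in FPKM. Levels and sums of the cell type markers are in CPM, which is not corrected for gene length.

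The members and the 14 gene lists were chosen with earlier results of these data known. The genes named are all members, PTBP1, the other actin genes tested, neighbours of ACTL8, the 5 genes most like it in profile and up to 3 per list by smallest p; MAGEB2, PBK, MAGEA6, SRF, the overlapping genes and the cell type markers KRT8, KRT18, SERPINA1, ALB, APOB, TTR, FGB, AFP, COL1A1, CNN1, COL1A2 and MYH11 were added after their values were seen. Annotation was GENCODE 29, which matched 58552 of 58825 genes.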

Additional observations from a re-analysis of the deposited data

How the results depend on the processing

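The number of genes called was 6 in the reported fit, and 6 with RLE scaling, 5 with library totals, 6 without the low-count filter, 9 and 6 with limma on log2(FPKM + 1) and log2(FPKM + 0.1), 7 with counts divided by 4, 168 in DESeq2, 1 with limma on log2(FPKM + 1) without a filter, 63 with the libraries numbered 1 and 2 alone, 3 with number 3 as a covariate, and 2 to 136 with 1 library left out, the 136 without shControl 3. The 10 members gave 1 call in the reported fit, and 0 with limma without a filter, 0 with number 3 as a covariate and 0 to 1 with 1 library left out. ACTL8 was negative in all 17 alternatives, and past the adjusted threshold in 9, with adjusted p from 4.49e-19 (DESeq2) to 0.416. It missed the threshold with limma without a filter (-1.39, adjusted p = 0.0615), with number 3 as a covariate (-2.29, adjusted p = 0.0740) and in 5 of the 6 fits that left out a library (edgeR adjusted p from 0.0810 to 0.161), and passed without shControl 3 (adjusted p = 0.0178). Over the 6 its value ran from -2.33 to -2.25. The causes were not tested. Of 153 alternative values of the other 9 members 0 passed the threshold, the smallest adjusted p being 0.0731. DESeq2 alone called PPT2 (-0.55, adjusted p = 0.0215), TTLL11 (-0.98, adjusted p = 0.0254) and FAP (3.53, adjusted p = 0.0256), and CAPG was called by DESeq2 (1.05, adjusted p = 0.0215) and by edgeR without shControl 3 (1.38, adjusted p = 0.0387). ACTB lay between -0.39 and 0.45 and ACTA2 between 0.01 and 0.80.

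Over all genes tested, the deviations of same-numbered libraries correlated at -0.0593, 0.123 and 0.0195, so no general pairing by number was seen. Such a correlation cannot exclude a pattern by number in a subset of genes, and the red-cell and leukocyte markers had one. With the replicate block, edgeR called 0 genes (987 at an unadjusted p under 0.05, against 1104 without it) and 0 members, with ACTL8 at -2.29 (adjusted p = 0.416); DESeq2, without a block, called 168. The ACTL8 counts in shPTBP1 were 110 to 123.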
